A study of Mus musculus with 10 samples.

Results

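The constitutive proteasome genes are the members of the Psma, Psmb, Psmc, Psmd, Psme, Psmf and Psmg families other than the inducible immunoproteasome subunits Psmb8, Psmb9 and Psmb10. They were taken by gene symbol from the array annotation, 1 probe set per gene, and numbered 44 of the 18193 genes tested. Psme2, a subunit of an activator ring, was the 1 further gene with such a name; its probe set also detects another gene, so it was left out. The proteasome degrades proteins tagged with ubiquitin. Its core particle is a stack of alpha and beta rings with the proteolytic sites inside the beta rings, and a regulatory particle, made of a base with an ATPase ring and a lid, recognises, unfolds and feeds in substrates. Dedicated chaperones assemble both particles, and in neurons the complex is known for its part in synaptic protein turnover and in clearing misfolded proteins.

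RNA came from the ipsilateral brain hemisphere of male mice, collected 24 h after sham surgery or after blockage of the middle cerebral artery (MCAO, an ischemic stroke model). The 4 groups were Hsp72Tg MCAO with 3 arrays, Hsp72Tg sham with 2, WT MCAO with 3 and WT sham with 2. Hsp72Tg mice overexpress the heat shock protein Hsp72. The sources used here do not give the promoter of the transgene or the strain and age of the mice. The sources do not state that each array is a separate animal, so the p-values measure the spread between these samples. Changes below are differences of log2 values, MCAO minus sham, within a genotype or averaged over both genotypes.

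The brightest markers of brain tissue were high: the neuronal genes Snap25 and Syt1 lay between 13.11 and 13.90 on the 10 arrays, the oligodendrocyte gene Mbp between 13.89 and 14.15 and the astrocyte gene Slc1a2 between 13.22 and 13.61. The mean of each stood at percentile 99.7 or higher of all genes. The other measured genes of these lists ran from percentile 59.3 (Mog) to 99.6 (Cnp), and the microglial genes from 37.3 (Aif1) to 94.7 (Csf1r). Hspa1a and Hspa1b, the genes for Hsp72, rose after MCAO by 3.12 (SE 0.41, limma adjusted p = 0.014) and 3.47 (SE 0.33, adjusted p = 0.00343), though Hspa1a lost its call without WT sham 1, WT sham 2, Hsp72Tg sham 1 or WT MCAO 3 (adjusted p = 0.065 to 0.093). In sham hemispheres Hspa1a read 8.28 and 8.53 in Hsp72Tg, against 8.54 and 8.45 in WT, and Hspa1b read 9.12 and 9.15 in Hsp72Tg, against 9.38 and 9.48 in WT. The Hspa1a ranges overlapped and Hspa1b was lower on both Hsp72Tg arrays (a difference of -0.29, SE 0.51, adjusted p = 1), so neither probe set showed the labelled overexpression without injury. Whether these probe sets detect the transcript of the transgene was not tested. Some arrays bear on what follows. On the first principal component of all genes, which held 50.3% of the variance, Hsp72Tg MCAO 1 lay at -12.9, against 11.7 to 32.3 for the other 5 MCAO arrays and -23.7 to -20.7 for the 4 sham arrays. WT sham 1 read 9.46 for Gabra6, a cerebellar granule cell gene, where the other 9 arrays read 4.15 to 4.49. Hsp72Tg sham 1 and Hsp72Tg sham 2 stood apart from each other in the proteasome genes themselves, as described below.

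The constitutive proteasome genes stayed close to their sham levels 24 h after MCAO. Averaged over both genotypes, the 44 changes ran from -0.31 to 0.29 with a median of 0.03, against a median of -0.03 over all genes. The change was positive for 29 of 44 (65.9%, against 42.5% of all genes). The direction of this median rested on the Hsp72Tg sham arrays: it was 0.11 without Hsp72Tg sham 1 and -0.08 without Hsp72Tg sham 2. None of the 44 passed an adjusted p of 0.05 in limma, where 1.46% of all genes passed. At an unadjusted p under 0.05, 3 were higher after MCAO (Psmd11, Psmd12 and Psmd1; 8.3% of all genes were) and 0 were lower (10.8% of all genes). The 95% interval of the change lay within 0.5 of 0 for 41 of the 44, and the widest bounds were -0.62 and 0.54. Fewer cells of a type and less RNA per cell cannot be told apart in whole-hemisphere RNA.

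**Figure D1:**
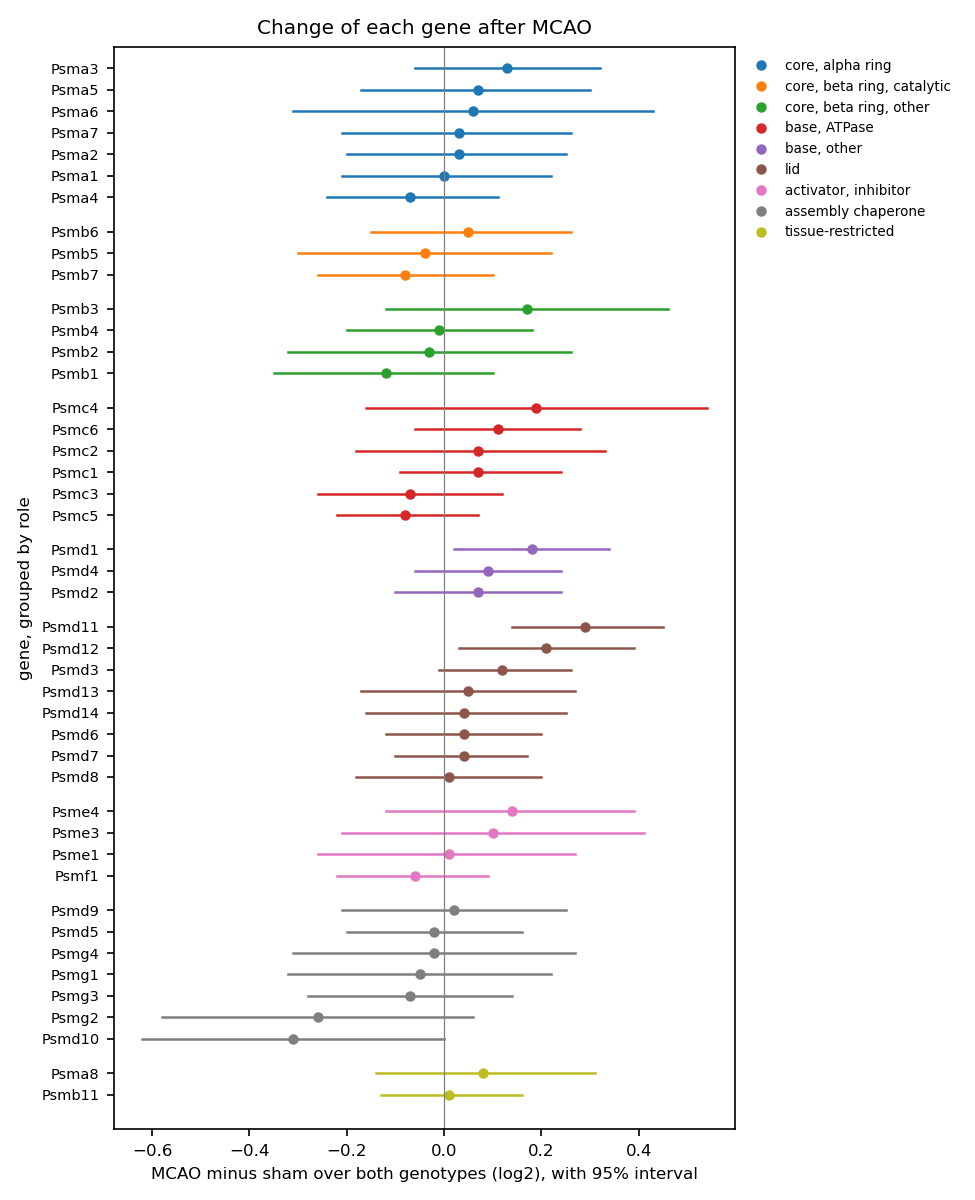
Change after MCAO (log2, mean of both genotypes) of each of the 44 genes, grouped by role from top to bottom; points are estimates and lines 95% intervals from limma. All 8 lid genes lie above 0 and Psmd11 is farthest to the right at 0.29, while 6 of 7 assembly chaperones lie below 0 with Psmd10 farthest to the left at -0.31. In WT alone 4 of 7 assembly chaperones were above 0, and in Hsp72Tg alone 5 of 8 lid genes were.

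None of the core particle genes passed in limma. In the alpha ring, which gates entry to the proteolytic chamber, 6 of 7 genes had a change above 0 over both genotypes and the median was 0.03. Within WT 7 of 7 were above 0 (median 0.08), and within Hsp72Tg 3 of 7 were (median -0.08). Over both genotypes Psma3 had the highest change in the ring at 0.13 (SE 0.09, limma adjusted p = 0.45) and Psma4 the lowest at -0.07 (SE 0.08, adjusted p = 0.699). Among the catalytic beta subunits, Psmb6, the caspase-like subunit, had a change of 0.05 (SE 0.09), Psmb5, the chymotrypsin-like subunit, -0.04 (SE 0.12), and Psmb7, the trypsin-like subunit, -0.08 (SE 0.08), with adjusted p-values of 0.791, 0.894 and 0.628. Psmb5 read 11.37, 10.91 and 11.20 in Hsp72Tg MCAO, against 11.47 and 10.96 in Hsp72Tg sham, and it read 11.14, 11.22 and 11.28 in WT MCAO, against 11.22 and 11.25 in WT sham. The ranges overlapped in both genotypes. On the probe sets used, the other beta ring genes ranged from -0.12 (SE 0.10) for Psmb1 to 0.17 (SE 0.13) for Psmb3, with 1 of 4 above 0. That count depends on the probe set. Psmb4 had -0.01 on the one used (mean 11.93) and 0.26 (SE 0.16) on another (mean 11.31). For Psmb1 a dimmer probe set (mean 6.72) had 0.12. Psma8 and Psmb11, the testis and thymus subunits, had values of 4.66 to 5.18 on all 10 arrays and means below 5.17, the lower quartile of all probe sets. The other 42 genes had values of 7.75 to 12.3.

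The regulatory particle held the members with the highest changes. All 8 lid genes had a change above 0 over both genotypes, from 0.01 for Psmd8 to 0.29 for Psmd11, with a median of 0.05, and 0 of 8 passed the adjusted threshold in limma. Psmd8 was at -0.05 without WT sham 1 and Hsp72Tg MCAO 1. Within WT 8 of 8 lid genes were above 0 (median 0.1), and within Hsp72Tg 5 of 8 were (median 0.02, lowest -0.07). Psmd11, a structural lid subunit, read 11.79, 12.08 and 11.98 in Hsp72Tg MCAO, against 11.69 and 11.73 in Hsp72Tg sham. In WT MCAO it read 12.06, 12 (to both decimals) and 12.01, against 11.68 and 11.67 in WT sham. Every MCAO array lay above every sham array, Hsp72Tg MCAO 1 by the smallest margin. The change was 0.29 (SE 0.07, unadjusted p = 0.00208, adjusted p = 0.0736) over both genotypes, 0.24 (SE 0.10, adjusted p = 0.398) in Hsp72Tg and 0.34 (SE 0.10, adjusted p = 0.255) in WT. Without Hsp72Tg MCAO 1 it was 0.33 and passed in limma, at an adjusted p of 0.0108, as did 12.4% of all genes. That array also lacked the rise of the neutrophil gene S100a8 (6.20, against 8.89 to 10.88 on the other 5 MCAO arrays and 5.53 to 7.67 on the sham arrays); the part of either in the Psmd11 values was not tested. Of the 8 probe sets for Psmd11, the 4 with means above 10 had changes of 0.20 to 0.33 and the 4 with means under 7 had -0.11 to 0.13, so that averaging all 8 lowered the change to 0.13 (adjusted p = 0.269).

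Psmd12, another lid subunit, was higher on every MCAO array but 1. It read 10.44, 10.76 and 10.68 in Hsp72Tg MCAO, against 10.49 and 10.47 in Hsp72Tg sham, and 10.83, 10.60 and 10.69 in WT MCAO, against 10.41 and 10.46 in WT sham. The WT groups did not overlap, and in Hsp72Tg the MCAO 1 array lay below both sham arrays. The change was 0.21 (SE 0.08, limma unadjusted p = 0.027, adjusted p = 0.198). Without Hsp72Tg MCAO 1 it was 0.26 with an adjusted p of 0.0483, where 12.4% of all genes passed. Psmd3, also in the lid, read 9.98, 9.95 and 9.89 in Hsp72Tg MCAO, against 9.72 and 9.84 in Hsp72Tg sham, and 9.97, 9.93 and 9.94 in WT MCAO, against 9.86 and 9.86 in WT sham. Neither genotype overlapped, but the change was 0.12 (SE 0.06, adjusted p = 0.294). The lid deubiquitinase Psmd14 had a change of 0.04 (SE 0.09, adjusted p = 0.838).

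In the base, the scaffold subunit Psmd1 read 11.11, 11.33 and 11.35 in Hsp72Tg MCAO, against 11.19 and 11.10 in Hsp72Tg sham, and 11.41, 11.32 and 11.30 in WT MCAO, against 11.07 and 11.14 in WT sham. As with Psmd12, Hsp72Tg MCAO 1 was the 1 MCAO array within the range of the 4 sham arrays. Its change was 0.18 (SE 0.07, unadjusted p = 0.0337, adjusted p = 0.218). The other scaffold, Psmd2, had 0.07 (SE 0.08) and the ubiquitin receptor Psmd4 0.09 (SE 0.07). Among the 6 ATPases that unfold substrates, 4 had changes above 0 with a median of 0.07, from -0.08 (SE 0.06) for Psmc5 to 0.19 (SE 0.16) for Psmc4. Psmc4 read 10.95, 11.23 and 10.96 in Hsp72Tg MCAO, against 11.29 and 10.54 in Hsp72Tg sham, and 11.49, 10.98 and 11.01 in WT MCAO, against 10.92 and 10.91 in WT sham. Its change was 0.00 without Hsp72Tg sham 2, 0.38 without Hsp72Tg sham 1 and 0.11 without WT MCAO 1, its highest array.

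**Figure D2:**
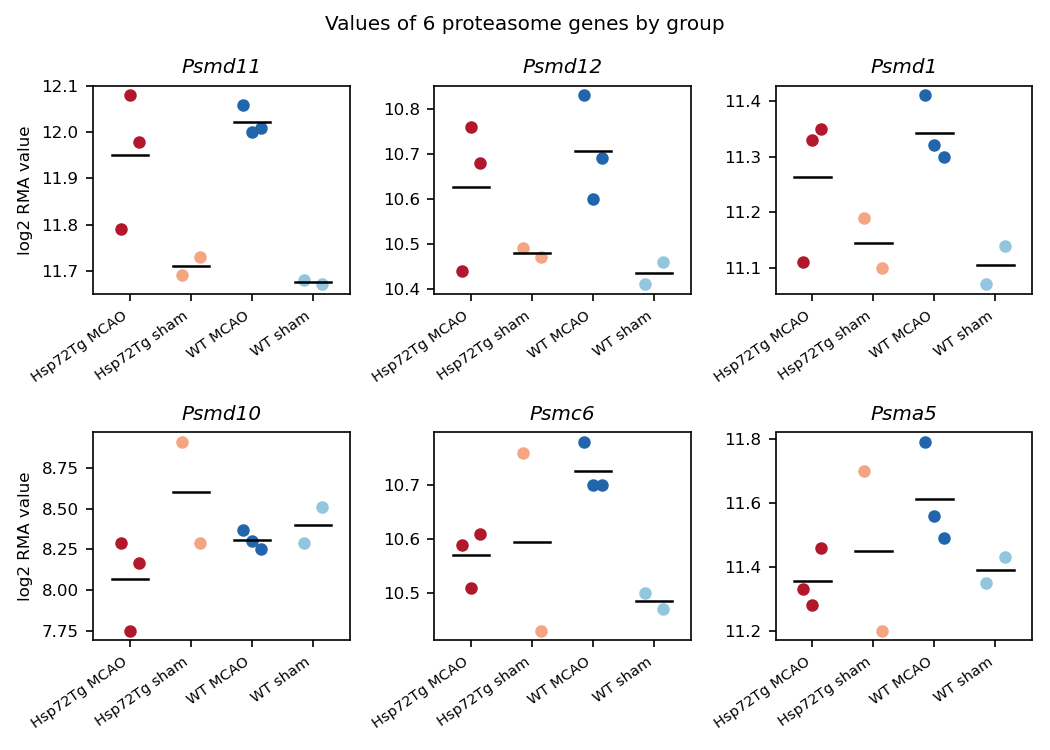
Log2 values of Psmd11, Psmd12, Psmd1, Psmd10, Psmc6 and Psma5 on each array, with a panel per gene and its own axis; points are arrays and bars group means. The MCAO arrays of Psmd11 lie above the sham arrays in both genotypes, and the 2 Hsp72Tg sham points of Psmd10, Psmc6 and Psma5 lie far apart.

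Over both genotypes the assembly chaperones had the lowest changes: 1 of 7 was above 0, the median was -0.05 and the range -0.31 to 0.02. Within WT 4 of 7 were above 0 (median 0.01), and within Hsp72Tg 1 of 7 was (median -0.12). All 7 read higher on Hsp72Tg sham 1 than on Hsp72Tg sham 2, by a median of 0.46. Psmd10 (gankyrin), a chaperone of the base, read 8.29, 7.75 and 8.17 in Hsp72Tg MCAO, against 8.91 and 8.29 in Hsp72Tg sham, and 8.37, 8.30 and 8.25 in WT MCAO, against 8.29 and 8.51 in WT sham. In Hsp72Tg the highest MCAO value lay just below the lowest sham value, though both round to 8.29, and the WT values overlapped. The change was -0.31 (SE 0.14, adjusted p = 0.264) over both genotypes, -0.53 (SE 0.20, unadjusted p = 0.0234, adjusted p = 0.381) in Hsp72Tg and -0.09 (SE 0.20, adjusted p = 0.923) in WT. Psmg2, a chaperone of the alpha ring, read 8.96, 8.27 and 8.88 in Hsp72Tg MCAO, against 9.33 and 8.88 in Hsp72Tg sham, and its change was -0.26 (SE 0.14, adjusted p = 0.354). Its 3 probe sets had changes of -0.30 to -0.20. For both genes Hsp72Tg MCAO 2 was the lowest and Hsp72Tg sham 1 the highest of the 10 arrays.

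The activators and the inhibitor had a median SD of 0.25 in Hsp72Tg MCAO, 0.11 in Hsp72Tg sham, 0.06 in WT MCAO and 0.03 in WT sham. Psme4, an activator known from spermatogenesis, read 9.91, 10.55 and 10.06 in Hsp72Tg MCAO, against 9.96 and 10.00 in Hsp72Tg sham, and 10.10, 10.14 and 10.01 in WT MCAO, against 10.05 and 9.97 in WT sham. A single array, Hsp72Tg MCAO 2, was high, and the change of 0.14 (SE 0.11, adjusted p = 0.557) did not pass. Psme3, the nuclear activator subunit, read 10.07, 9.75 and 9.26 in Hsp72Tg MCAO, against 9.32 and 9.58 in Hsp72Tg sham, so the ranges overlapped. The change of Psme3 was 0.10 (SE 0.14, limma adjusted p = 0.752) over both genotypes, 0.24 in Hsp72Tg and -0.05 in WT. Another Psme3 probe set (mean 9.4) had -0.1 in Hsp72Tg and 0.08 in WT. Psmf1, a proteasome inhibitor, read 9.19, 9.42 and 9.19 in Hsp72Tg MCAO, against 9.23 and 9.21 in Hsp72Tg sham, and 9.13, 9.12 and 9.15 in WT MCAO, against 9.32 and 9.29 in WT sham. The Hsp72Tg groups overlapped, and all WT MCAO arrays lay below the WT sham arrays. The change was 0.04 (SE 0.10, adjusted p = 0.905) in Hsp72Tg and -0.17 (SE 0.10, adjusted p = 0.605) in WT, and the difference between these changes was 0.21 (SE 0.14, adjusted p = 1).

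The promoter windows of Psmd11 and Psmd12, nearest to passing, and of Psmd10, with the lowest change, are shown from RefSeq on GRCm38.p6, each running from 250 bases before to 50 bases after the start site, 5′ to 3′ on the strand of the gene. They are chr11:80428365-80428664 (plus strand) for Psmd11, chr11:107479278-107479577 (plus strand) for Psmd12 and chrX:140956662-140956961 (minus strand) for Psmd10. Capitals mark matches to the antioxidant response element TGACNNNGC, the heat shock element core GAANNTTC or the CCAAT box, searched on both strands.
Psmd11: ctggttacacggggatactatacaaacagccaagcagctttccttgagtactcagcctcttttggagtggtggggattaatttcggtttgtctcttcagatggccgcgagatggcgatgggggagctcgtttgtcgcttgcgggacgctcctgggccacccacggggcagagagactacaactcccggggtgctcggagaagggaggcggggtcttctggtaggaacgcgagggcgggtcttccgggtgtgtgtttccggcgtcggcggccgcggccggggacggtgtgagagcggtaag
Psmd12: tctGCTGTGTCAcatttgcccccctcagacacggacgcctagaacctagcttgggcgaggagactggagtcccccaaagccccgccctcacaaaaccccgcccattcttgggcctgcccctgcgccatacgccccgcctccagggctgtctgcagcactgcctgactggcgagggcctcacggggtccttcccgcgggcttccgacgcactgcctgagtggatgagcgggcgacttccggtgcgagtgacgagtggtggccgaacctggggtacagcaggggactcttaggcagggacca
Psmd10: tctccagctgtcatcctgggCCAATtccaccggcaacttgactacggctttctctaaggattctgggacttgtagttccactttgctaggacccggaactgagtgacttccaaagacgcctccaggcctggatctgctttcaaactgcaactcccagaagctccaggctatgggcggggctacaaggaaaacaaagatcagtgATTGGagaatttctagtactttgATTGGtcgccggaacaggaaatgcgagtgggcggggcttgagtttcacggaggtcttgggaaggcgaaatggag
Psmd11 held no match, Psmd12 held 1 antioxidant response element match and Psmd10 held 3 CCAAT boxes. Of the 44 genes, 36 had such a window, and some had several, 38 in all. The antioxidant response element letters, through which the factors Nfe2l1 and Nfe2l2 act on proteasome genes, were in 15.8% of these windows and in 12.4% of all 32851 windows. They lay in Psmb5, Psmb6, Psmc6, Psmd9, Psmd12 and Psme4. The heat shock element letters were in 5.3% (Psmb5 and Psmf1), against 7.9% of all windows, and the CCAAT box was in 34.2%, against 37.4%. No antioxidant match overlapped a CCAAT box. These are letter matches only.

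Within Hsp72Tg, 21 of 44 changes were above 0 (47.7%, against 44.4% of all genes) and the median was -0.01, against -0.02 for all genes. The MCAO arrays lay above both sham arrays for 2 genes, Psmd3 and Psmd11 (9.05% of all genes), and below them for 3, Psmc5, Psmd7 and Psmd10 (12.8%). None of the 44 passed in limma, where 0.022% of all genes did, and at an unadjusted p under 0.05 Psmd11 was higher (4.73% of all genes) and Psmd10 lower (7.29%).

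Within WT, 32 of 44 changes were above 0 (72.7%, against 43.3% of all genes), with a median of 0.06 against -0.02 for all genes. All 3 WT MCAO arrays lay above both WT sham arrays for 15 of the 44 (34.1%, against 16.4% of all genes), and below them for 3, Psmb1, Psmb7 and Psmf1 (22.5% of all genes). Without WT sham 1 the first count was 21 (25.9% of all genes). The 15 were 4 of 7 alpha ring genes, 4 of 6 ATPases, 2 of 3 other base genes and 5 of 8 lid genes, with none among the 7 beta ring genes or the 7 chaperones. None of the 44 passed in limma at the adjusted threshold, where 0.055% of all genes did. At an unadjusted p under 0.05, 3 were higher (5.71% of all genes) and 0 lower (4.52%). In both genotypes at once, the MCAO arrays of Psmd3 and Psmd11 lay above (4.34% of all genes) and 0 genes lay below (5.35%).

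The changes in Hsp72Tg rest on 2 sham arrays that differed from each other across nearly the whole complex. Hsp72Tg sham 1 read higher than Hsp72Tg sham 2 for 39 of the 44 genes (88.6%, against 57.3% of all genes), with a median difference of 0.39, against 0.04 for all genes. The median size of the difference, without its sign, was 0.39 between the Hsp72Tg sham arrays and 0.05 between the WT sham arrays, where all genes had 0.16 and 0.09. The highest of the 10 arrays was Hsp72Tg sham 1 for 23 members (52.3%, against 19.7% of all genes), the lowest was Hsp72Tg sham 2 for 24 (54.5%, against 12.8%), and both held for 15 (34.1%, against 2.58%). Their median SD was 0.11 in Hsp72Tg MCAO, 0.28 in Hsp72Tg sham, 0.07 in WT MCAO and 0.04 in WT sham.

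**Figure D3:**
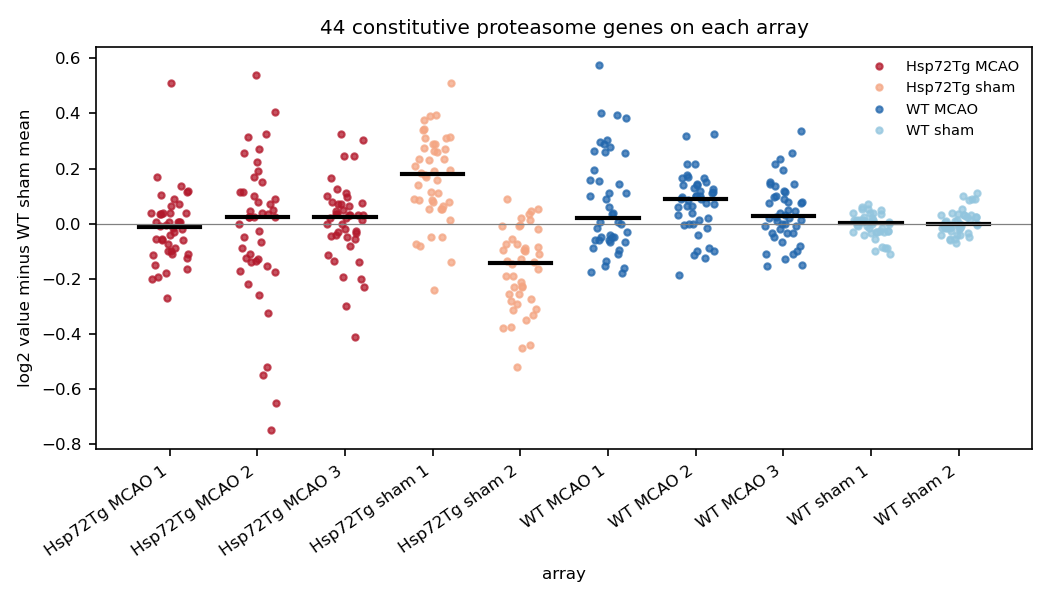
Log2 value of each of the 44 genes minus its WT sham mean, by array; points are genes, black bars their medians and colours the groups. The median is 0.18 on Hsp72Tg sham 1 and -0.14 on Hsp72Tg sham 2, while the other 8 arrays have medians of -0.01 to 0.09.

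The split ran through both particles. Hsp72Tg sham 1 was the higher for 7 of 7 alpha ring genes, 7 of 7 beta ring genes, 6 of 6 ATPases and 7 of 7 chaperones, but for 6 of 8 lid genes, 2 of 3 other base genes and 2 of 4 activators and inhibitors. Psma6, an alpha ring subunit, had the widest gap, with 11.86 and 10.95 in Hsp72Tg sham; its 3 Hsp72Tg MCAO values of 11.20, 11.64 and 11.47 lay between them, as did all 5 WT values, from 11.40 to 11.73. The ATPase gene Psmc4 read 11.29 and 10.54 in Hsp72Tg sham and Psmb3 read 10.97 and 10.33. Psmd11 was near level at 11.69 and 11.73, as was Psmd12 at 10.49 and 10.47. The 5 genes that ran the other way were Psmd2, Psmd3, Psmd11, Psme3 and Psme4.

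Set against Hsp72Tg sham 1 alone, the mean of the 3 Hsp72Tg MCAO arrays was lower for 35 of 44 genes, with a median of -0.21. Set against Hsp72Tg sham 2 alone it was higher for 38, with a median of 0.16. The sign turned between the arrays for 31 of the 44. The counts of 35, 38 and 31 were not made over all genes, so they have no background share beside them. The count of genes with every Hsp72Tg MCAO array above the sham was 30 without Hsp72Tg sham 1 (24.8% of all genes) and 3 without Hsp72Tg sham 2 (21.2%), and the count with every one below was 3 without Hsp72Tg sham 1 (24.9%) and 30 without Hsp72Tg sham 2 (33.9%). Psmd11 kept its sign against either, with 0.26 and 0.22. Some lists of cell type markers also differed between these arrays, and others were near level. Medians relative to the WT sham mean are given for Hsp72Tg sham 1, then Hsp72Tg sham 2. They were 0.00 and 0.03 for neuronal, 0.06 and 0.07 for oligodendrocyte and -1.39 and -1.43 for cerebellar markers, which were high on WT sham 1. Astrocyte markers had -0.13 and 0.04, microglial 0.25 and 0.05 and endothelial 0.01 and 0.26. Blood myeloid markers had 0.16 and 0.04 and erythroid markers 0.37 and -0.05. The erythroid list, with 2 of 3 genes measured, differed in the direction of the proteasome genes and by about as much. Both of its genes were higher on Hsp72Tg sham 1: Alas2 read 7.1 and 6.7, and Hba-a1, a hemoglobin gene, read 4.90 and 4.46. The mean of Hba-a1 stood at percentile 8.8 of all genes. On every array Hba-a1 lay below 5.17, the lower quartile of all probe sets. The gap in Hba-a1 is thus one between dim values, and the match of the erythroid list rests in part on it. The part of these markers in the split was not tested.

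**Figure D4:**
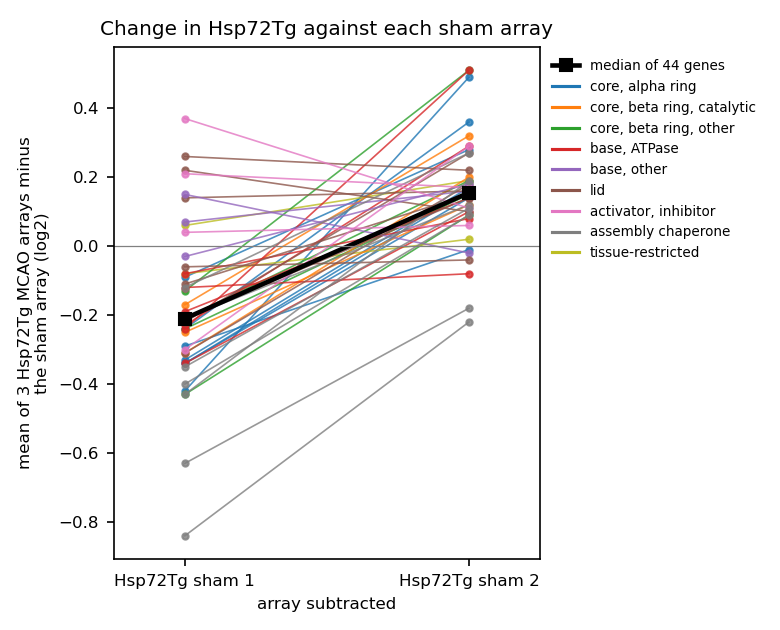
Mean of the 3 Hsp72Tg MCAO arrays minus a single Hsp72Tg sham array (log2) for each of the 44 genes, coloured by role, with the array subtracted on the horizontal axis; each line is a gene and the black line the median. The median is -0.21 against Hsp72Tg sham 1 and 0.16 against Hsp72Tg sham 2, and 31 lines cross 0.

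The signed change after MCAO was lower in Hsp72Tg than in WT for 34 of 44 genes, some of them further below 0 in Hsp72Tg, with a median difference of -0.08 against -0.01 for all genes. It was positive for 22.7% of the members and 47.4% of all genes. As over all genes (0%), none of the 44 passed in limma, and 0 had an unadjusted p under 0.05 (1.75% of all genes). The smallest p was for Psmc6, an ATPase gene that read 10.59, 10.51 and 10.61 in Hsp72Tg MCAO, against 10.76 and 10.43 in Hsp72Tg sham, and 10.78, 10.70 and 10.70 in WT MCAO, against 10.50 and 10.47 in WT sham. The WT groups were apart, and the Hsp72Tg MCAO values lay between the Hsp72Tg sham values. The difference of the changes was -0.26 (SE 0.15, unadjusted p = 0.118, adjusted p = 1). The WT rise of Psmc6 was seen on this probe set only, with 0.24 in WT and -0.02 in Hsp72Tg. Another probe set (mean 10.23) had -0.01 in WT and -0.14 in Hsp72Tg. A dimmer one (mean 7.69) had -0.22 in WT and -0.13 in Hsp72Tg. The median difference over the 44 was 0.10 without Hsp72Tg sham 1 and -0.26 without Hsp72Tg sham 2, so its direction rests on which of them is kept.

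After MCAO, the comparison that uses neither sham group, 37 of 44 genes had a lower mean in Hsp72Tg than in WT, with a median of -0.08, against -0.02 for all genes. The difference was above 0 for 15.9% of the members and 44% of all genes. All 3 Hsp72Tg MCAO arrays lay below all 3 WT MCAO arrays for 7 genes, Psma1, Psma5, Psmc3, Psmc6, Psmd7, Psmd14 and Psmg1 (15.9%, against 4.69% of all genes), and above them for 1, Psmf1 (2.75%). As over all genes (0%), none of the 44 passed in limma, and 0 had an unadjusted p under 0.05 (2.68% of all genes). Psma5 had the smallest p, with 11.33, 11.28 and 11.46 in Hsp72Tg MCAO, against 11.79, 11.56 and 11.49 in WT MCAO. These ranges were apart by a narrow gap, and the difference was -0.25 (SE 0.14, unadjusted p = 0.0907, adjusted p = 1). The assembly chaperone Psmg1 read 9.15, 8.69 and 9.16 in Hsp72Tg MCAO, against 9.19, 9.33 and 9.26 in WT MCAO, a difference of -0.26 (SE 0.15). Leaving out any 1 array kept the median between -0.09 and -0.05; it was -0.05 without Hsp72Tg MCAO 1.

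In sham hemispheres 22 of 44 genes had a higher mean in Hsp72Tg than in WT, with a median difference of 0.00, against -0.01 for all genes. That median lay between opposite arrays, at -0.14 without Hsp72Tg sham 1 and 0.18 without Hsp72Tg sham 2. As over all genes (0%), none of the 44 passed in limma, and 0 had an unadjusted p under 0.05 (1.56% of all genes). The smallest p was for Psmb2, a beta ring subunit, which read 9.37 and 8.98 in Hsp72Tg sham, against 9.47 and 9.37 in WT sham, a difference of -0.25 (SE 0.20, unadjusted p = 0.25, adjusted p = 1). The ranges met at 9.37 as rounded.

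The inducible subunits that replace catalytic beta subunits in the immunoproteasome were measured beside the constitutive ones. Psmb8 read 6.97, 7.03 and 7.72 in Hsp72Tg MCAO, against 7.08 and 6.53 in Hsp72Tg sham, and 7.20, 7.49 and 7.70 in WT MCAO, against 6.68 and 6.77 in WT sham. The WT groups were apart and the Hsp72Tg groups overlapped. Its change was 0.59 (SE 0.17, adjusted p = 0.112), against 0.01 (SE 0.09) for Psmb9 and -0.06 (SE 0.07) for Psmb10. With the interferon-linked regulators Irf1 and Nlrc5 and the peptide transporter Tap1, 0 of 6 measured of 7 listed passed (1.46% of all genes did). Of the 6, 5 were above 0 (42.5% of all genes) and the median was 0.34. At an unadjusted p under 0.05 in limma, 4 were higher (8.3% of all genes) and 0 lower (10.8%). Without Hsp72Tg MCAO 1, Psmb8 (0.66, adjusted p = 0.0343) and Nlrc5 (0.62, adjusted p = 0.0232) passed, where 12.4% of all genes did.

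**Figure D5:**
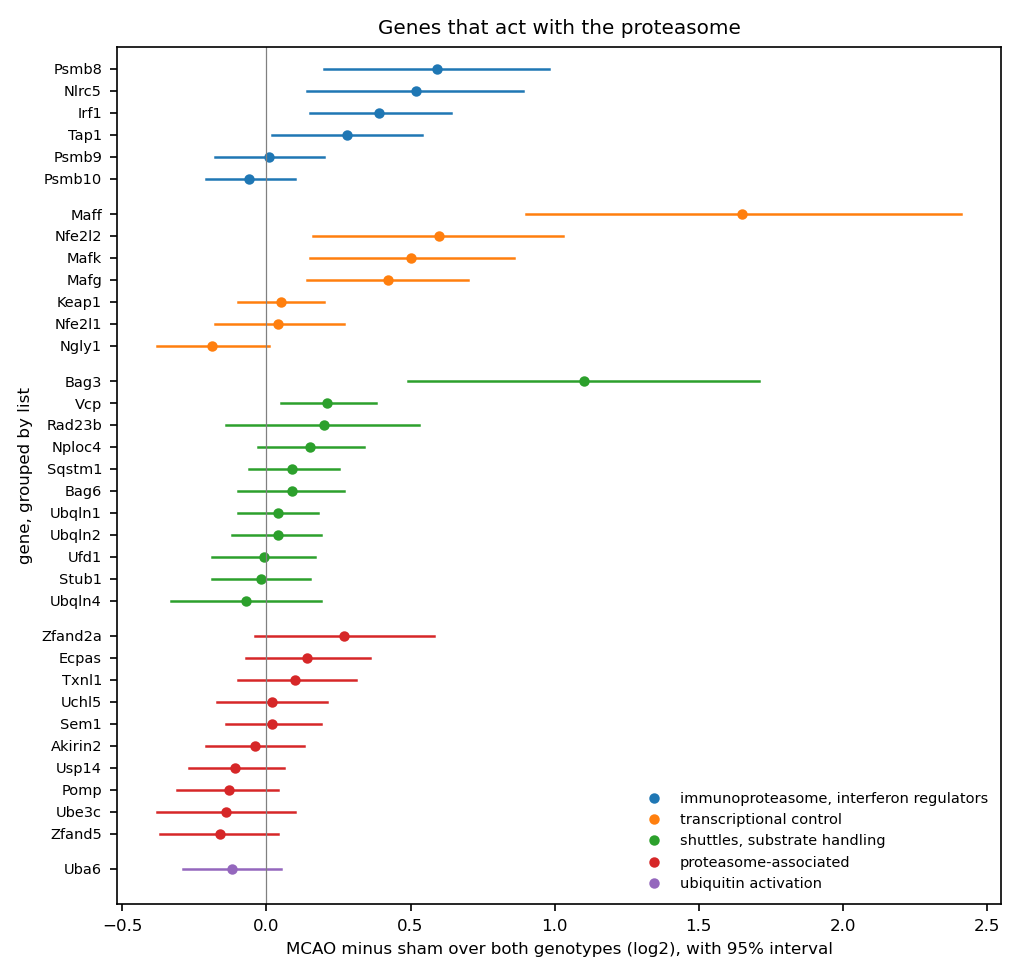
Change after MCAO (log2, mean of both genotypes) of the measured genes that act with the proteasome, grouped by list; points are estimates and lines 95% intervals from limma. Maff lies farthest to the right at 1.65 and is the 1 gene of these lists that passed, and the proteasome-associated genes lie between -0.16 and 0.27.

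Among genes for the transcriptional control of the proteasome, 1 of 7 measured of 9 listed passed over both genotypes, where 1.46% of all genes did. It was higher after MCAO, and 0 passed as lower. That gene was Maff, a small Maf protein that pairs with Nfe2l1 and Nfe2l2 on antioxidant response elements. It read 6.37, 8.43 and 8.07 in Hsp72Tg MCAO, against 5.97 and 5.71 in Hsp72Tg sham, and 7.51, 7.22 and 7.59 in WT MCAO, against 6.11 and 5.72 in WT sham. All MCAO arrays were above all sham arrays, with Hsp72Tg MCAO 1 the lowest of them, and the change was 1.65 (SE 0.34, adjusted p = 0.0491). The call was lost without any 1 of the other 9 arrays (adjusted p = 0.0541 to 0.196) and held without Hsp72Tg MCAO 1 (1.97, adjusted p = 1.78e-05). Nfe2l1, which is known to raise proteasome genes when proteasome activity is low, had 0.04 (SE 0.10, limma adjusted p = 0.86). Nfe2l2, the oxidative stress factor, had 0.60 (SE 0.19, adjusted p = 0.14). Without Hsp72Tg MCAO 1, where 12.4% of all genes passed, Nfe2l2 had 0.70 (adjusted p = 0.0285).

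In the list of substrate shuttles and handlers, 0 of 11 measured of 13 listed passed (1.46% of all genes did) and the median was 0.09. Bag3, a co-chaperone that diverts substrates to autophagy, had the largest change at 1.10 (SE 0.27, limma adjusted p = 0.0781). Without Hsp72Tg MCAO 1, where 12.4% of all genes passed, Bag3 had 1.33 (adjusted p = 0.000595). Vcp, the unfoldase ahead of the proteasome, had 0.21 (SE 0.08, adjusted p = 0.166) over all arrays. In the proteasome-associated list 0 of 10 measured of 13 listed passed (1.46% of all genes did) and the median was -0.01. Its extremes were the stress-induced Zfand2a at 0.27 (SE 0.14) and the proteasome activator Zfand5 at -0.16 (SE 0.09). Uba6, a ubiquitin-activating enzyme and the 1 measured gene of 6 listed for ubiquitin and its activation, had -0.12 (SE 0.08, adjusted p = 0.425).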

How the data were processed

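The deposited values are log2 expression values that the authors obtained by RMA, per the submitters' notes on processing; labelling used an Affymetrix kit, per the labels' protocols. RMA settings and genome build: not given in the sources used here. No background flag was used. The number of arrays limits the precision. Of 45101 probe sets, 64 control probe sets were left out; 34945 had 1 symbol, 932 several and 9160 none. Of a gene's single-symbol probe sets, the one brightest on average over all 10 arrays stood for it. Groups were compared in limma 3.58.1 (R 4.3.3) with lmFit and eBayes on all 18193 genes, a mean per group, and two-sided p-values adjusted by Benjamini-Hochberg over all genes; the script was tested on simulated data. "Both genotypes" is the mean of the 2 genotypes' changes. The rule for named genes took members past an adjusted p of 0.05, the extremes of each role group, the 3 smallest p in each genotype contrast and the 2 largest changes and any pass of each pathway list. Further members were chosen by their values. The members and lists were chosen with earlier results of these data known. Alternatives covered normalization, probe sets, filter, array weights, block, threshold and arrays left out.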

Additional observations from a re-analysis of the deposited data

How the results depend on the processing

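No alternative that was run called more than 2 of the 44 genes. Over both genotypes limma array weights called 1 (Psmd11, adjusted p = 0.029), as did leaving out WT sham 1 and Hsp72Tg MCAO 1 together (Psmd11, adjusted p = 0.0494), and leaving out 1 array gave 0 to 2. In WT, limma array weights called 1 (Psmd11, adjusted p = 0.015), where 7.46% of all genes passed. A limma fit of the WT arrays alone called 1 (Psmd11, adjusted p = 0.0446), where 5.25% of all genes passed. Over all genes the count over both genotypes moved with the setting, 1116 (6.13%) with array weights and 2251 (12.4%) without Hsp72Tg MCAO 1, against 266 (1.46%). Leaving out 1 array moved the median change of the 44 genes between -0.076 and 0.114 over both genotypes, between -0.212 and 0.157 in Hsp72Tg, between -0.258 and 0.101 for the difference of the changes and between -0.138 and 0.179 for Hsp72Tg minus WT in sham, with both ends set by the Hsp72Tg sham arrays. With 1 array left out, genes with all MCAO arrays above the shams numbered 2 to 30 in Hsp72Tg and 16 to 21 in WT. The 16 were without WT MCAO 2 (21.7% of all genes) and the 21 without WT sham 1 (25.9%). Genes with all below numbered 3 to 30 in Hsp72Tg and 4 to 8 in WT. In WT, 8 lay below without WT sham 1 (33.3% of all genes). The count was 5 without WT sham 2 (34.4%) and 6 without WT MCAO 2 (27.3%). Without Hsp72Tg MCAO 1, 6 lay above in Hsp72Tg (18.9% of all genes). Fewer arrays make such separation easier by construction. Some small changes over both genotypes turned sign, and the cause was not tested: Psmc6 (-0.048) and Psmg3 (0.06) with the mean over probe sets, Psma8 (-0.015) and Psmb2 (0.021) with the replicate block, and Psmd9 (-0.045), Psmd8 (-0.051), Psmb9 (-0.007) and Nfe2l1 (-0.033) without WT sham 1 and Hsp72Tg MCAO 1. Leaving out 1 array gave ranges across 0 for Psma4 (-0.137 to 0.005), Psma5 (-0.06 to 0.19), Psmb1 (-0.252 to 0.009), Psmb2 (-0.131 to 0.068), Psmb5 (-0.166 to 0.089), Psmb6 (-0.068 to 0.178), Psmb7 (-0.174 to 0.012), Psmb9 (-0.038 to 0.057), Psmb10 (-0.111 to 0.001), Psmb11 (-0.01 to 0.039), Psmd8 (-0.081 to 0.096), Psmd9 (-0.079 to 0.117), Psmd14 (-0.078 to 0.164), Nfe2l1 (-0.03 to 0.112), Psmg1 (-0.166 to 0.063) and Psmg3 (-0.196 to 0.049). Maff also lost its call with trend and robust options (adjusted p = 0.0733), quantile normalization (0.0559) and the mean over probe sets (0.0548). With the replicate number as a block, Maff and Hspa1a lost theirs (adjusted p = 0.186 and 0.0577), 0 of the 44 were called in each contrast, the median over both genotypes was 0.033 and 19 of all genes passed, against 266. The numbers were not taken to pair the arrays: of 13 same-numbered pairs, 2 had deviations correlated over 0.1, with a range of -0.16 to 0.25.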

Other observations

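The other lists did not share the split of the Hsp72Tg sham arrays in 1 direction. All 6 measured genes of the immunoproteasome and interferon list read higher on Hsp72Tg sham 1 than on Hsp72Tg sham 2, among them Psmb8 with 7.08 and 6.53. Of the 10 proteasome-associated genes, 6 read higher on Hsp72Tg sham 1 and 4 on Hsp72Tg sham 2. Among the 6, Pomp, the chaperone that matures the core particle, read 11.81 and 11.44 in Hsp72Tg sham. It read 11.33, 11.38 and 11.45 in Hsp72Tg MCAO and 11.40 to 11.50 on the WT arrays. Of the 11 genes for substrate shuttles and handling, 1 read higher on Hsp72Tg sham 1 and 10 on Hsp72Tg sham 2, where Vcp read 12.04 and 12.34. Over all genes, 57.3% read higher on Hsp72Tg sham 1. These are values of 2 arrays, with no test.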
